A study of Canis lupus familiaris with 16 samples.

Results

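The genes described here are 10 skeletal muscle genes, *TTN*, *NEB*, *ACTA1*, *CKM*, *RYR1*, *MYH7*, *MYBPC1*, *TNNT3*, *TNNC2* and *MYLPF*, out of 41818 genes counted by RNA sequencing in 16 canine soft tissue sarcomas. They were chosen by name because they stood high in 1 tumor, the fibrosarcoma S1-11, in these same counts. Levels in S1-11 are therefore given as a description and without a test. All 10 genes had at least 50 reads over the 16 tumors, and 4 of them (*TTN*, *NEB*, *RYR1* and *MYH7*) passed the filter for the tests between tumor types.

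Each sample was an archived, formalin-fixed and paraffin-embedded tumor of a dog, and no normal tissue was analysed here. By the molecular identity in the labels, 4 tumors were fibrosarcomas (FS, dogs aged 9 to 13 years), 6 were peripheral nerve sheath tumors (PNST, 8 to 13 years) and 6 were perivascular wall tumors (PWT, 2 to 14 years). Histology gave 5, 5 and 6, since S1-10 had been called a PWT and S2-08 an FS, and the molecular identity rests on expression in these same libraries. S1-04 and S1-05 carry identical labels and may come from the same dog. Names beginning with S1 and S2, which may mark sequencing groups, were unevenly spread, with 3 S1 tumors among the FS, 5 among the PNST and 1 among the PWT.

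Skeletal muscle contracts by sliding thin actin filaments past thick myosin filaments within the sarcomere, the repeating unit of the muscle fiber. Titin runs along the sarcomere as a molecular spring, nebulin lines the thin filament, and troponin on the thin filament lets myosin bind once calcium is released from the sarcoplasmic reticulum. Developing and regenerating fibers use embryonic and perinatal forms of myosin and actin before they are replaced by the adult forms, and resident satellite cells, marked by *PAX7*, supply the nuclei of new fibers.

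Between 507728 and 4311876 reads fell on genes in each tumor. Levels are given as CPM, the reads of a gene per 1000000 reads on genes of that tumor, after scaling by TMM (trimmed mean of M-values) factors. For S1-11 the factor was 0.798, the lowest of the 16. S1-11 also had the smallest share of reads outside genes (41.8%, against up to 66.7%) and the largest share with more than 1 alignment (31.6%, against as little as 9.11%). Whether these differences touched the muscle genes was not tested. All intervals on single counts cover counting error only, at 95%.

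Summed over the 10 genes, S1-11 stood at 11022 CPM, or 0.879% of its reads on genes. A pair of PWT came next, S1-07 with 1219 CPM and S2-09 with 689 CPM. The other 13 tumors, of all 3 types, lay between 34.0 CPM (S1-09, a PNST) and 96.9 CPM (S1-02, an FS). The high tumors thus belonged to 2 types, and the 6 PNST lay between 34.0 and 65.8 CPM with a median of 51.2 CPM. The median was 79.6 CPM in FS and 60.8 CPM in PWT. The order was the same without *TTN*, with 2072 CPM in S1-11, 481 CPM in S1-07 and 193 CPM in S2-09 against 14.9 to 36.5 CPM elsewhere. In bulk RNA, a difference in the number of cells of a type and a difference in RNA per cell cannot be told apart.

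**Figure D1:**
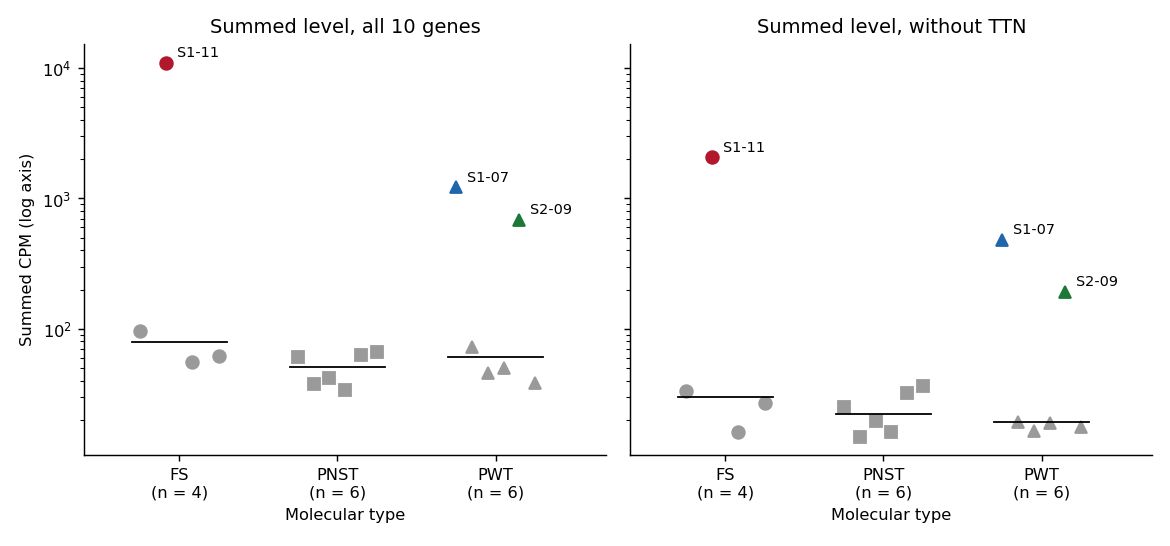
Summed CPM (log axis) of the 10 genes (left) and of the 9 genes without *TTN* (right), each point 1 tumor and each line the median of its molecular type. S1-11 among the FS and S1-07 and S2-09 among the PWT stand above all other tumors, which lie at or below 96.9 CPM on the left and 36.5 CPM on the right.

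*ACTA1* encodes the alpha-actin of the adult skeletal thin filament. Its level was 315 CPM in S1-11 (584 reads, interval 290 to 341) and 1.05, 1.81 and 0 CPM in the FS S1-02, S1-12 and S2-06. In the PNST it lay between 0.553 and 1.79 CPM with a median of 1.20 CPM. In the PWT, S1-07 had 193 CPM (343 reads) and S2-09 had 29.9 CPM (37 reads), while the other 4 had at most 0.739 CPM. Outside the 3 high tumors no tumor had more than 6 reads of this gene, so the step between the high and the low tumors was large even for a thin library.

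*NEB* encodes nebulin, the giant protein that lines the thin filament. It stood at 1103 CPM in S1-11, and at 22.8, 5.42 and 17.6 CPM in S1-02, S1-12 and S2-06. The PNST ranged from 2.30 to 23.8 CPM (S2-07) with a median of 3.08 CPM. In the PWT, S1-07 had 68.2 CPM, S2-09 had 73.5 CPM and the other 4 had 2.75 to 8.70 CPM. The low tumors of the 3 types overlapped, and no tumor was without reads.

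Troponin T and troponin C of fast fibers, encoded by *TNNT3* and *TNNC2*, anchor the troponin complex and bind calcium. *TNNT3* was the gene most nearly confined to the high tumors, with 124 CPM in S1-11 (230 reads), 22.0 CPM in S1-07 (39 reads) and 4.04 CPM in S2-09 (5 reads). It was at 0 in 10 of the other 13 tumors and had 1 read in each of the remaining 3. *TNNC2* was higher in S1-07 (20.9 CPM, 37 reads) than in S1-11 (17.8 CPM, 33 reads), where the interval of S1-07 (14.7 to 28.8 CPM) took in the level of S1-11. S2-09 had 4.04 CPM of *TNNC2* from 5 reads, and the other 13 tumors had 0 to 2.87 CPM. A count of 0 allows up to 3 reads, which is 5.42 CPM in the shallowest library (S1-12), so for these genes zeros in thin libraries are not informative below that level.

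*MYH7* encodes the myosin heavy chain of slow fibers. It stood at 125 CPM in S1-11 (231 reads), and at 2.46, 3.61 and 2.32 CPM in S1-02, S1-12 and S2-06. The PNST had 1.72 to 4.78 CPM with a median of 2.83 CPM. In the PWT, S2-09 had 19.4 CPM (24 reads) and S1-07 had 6.77 CPM (12 reads, interval 3.50 to 11.8), the reverse of their order for *ACTA1*. The interval of S1-07 takes in the highest of the other 13 tumors, S1-03 at 4.78 CPM.

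*MYLPF*, the fast regulatory light chain of myosin, was at 112 CPM in S1-11, 22.6 CPM in S1-07 and 6.46 CPM in S2-09. The other 13 tumors had 0 to 2.81 CPM, with 4 of them at 0. *MYBPC1*, a myosin-binding protein of the thick filament, behaved otherwise, since its levels were close in the 3 tumors, at 18.3 CPM in S1-11 (34 reads), 15.2 CPM in S1-07 (27 reads) and 17.8 CPM in S2-09 (22 reads). No other tumor had more than 2 reads of *MYBPC1*, and 6 were at 0.

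*TTN*, titin, carried most of the reads. It stood at 8950.1 CPM in S1-11 (16599 reads, interval 8814 to 9087), which was 0.714% of all reads on genes there. The other FS had 63.9 CPM (S1-02), 39.7 CPM (S1-12) and 35.3 CPM (S2-06), and the PNST ranged from 17.9 to 35.5 CPM with a median of 26.0 CPM. In the PWT, S1-07 had 738 CPM and S2-09 had 496 CPM, while the other 4 had 20.7 to 52.6 CPM. S1-11 was 12.1 times the next tumor, and every tumor had at least 21 reads, so a low level of titin reads was seen in all 3 types.

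*RYR1*, the calcium release channel of the sarcoplasmic reticulum, was the member that least set S1-07 and S2-09 apart. It stood at 219 CPM in S1-11, and at 3.51, 3.61 and 4.65 CPM in S1-02, S1-12 and S2-06. S1-07 had 15.2 CPM and S2-09 had 16.1 CPM, beside 16.1 CPM in the PNST S1-10 (45 reads). The PNST ranged from 4.96 to 16.1 CPM with a median of 8.05 CPM, and the other 4 PWT from 5.91 to 9.64 CPM.

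*CKM*, the muscle creatine kinase that buffers the energy supply of the contractile apparatus, gave another order. It was highest in S1-07 with 117 CPM (207 reads, interval 101 to 134), followed by S1-11 with 38.3 CPM (71 reads, interval 29.9 to 48.3) and S2-09 with 21.8 CPM (27 reads, interval 14.4 to 31.7). The other 13 tumors had 0 to 2.76 CPM, with 6 of them at 0. The intervals of S1-07 and S1-11 are apart, while those of S1-11 and S2-09 overlap.

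**Figure D2:**
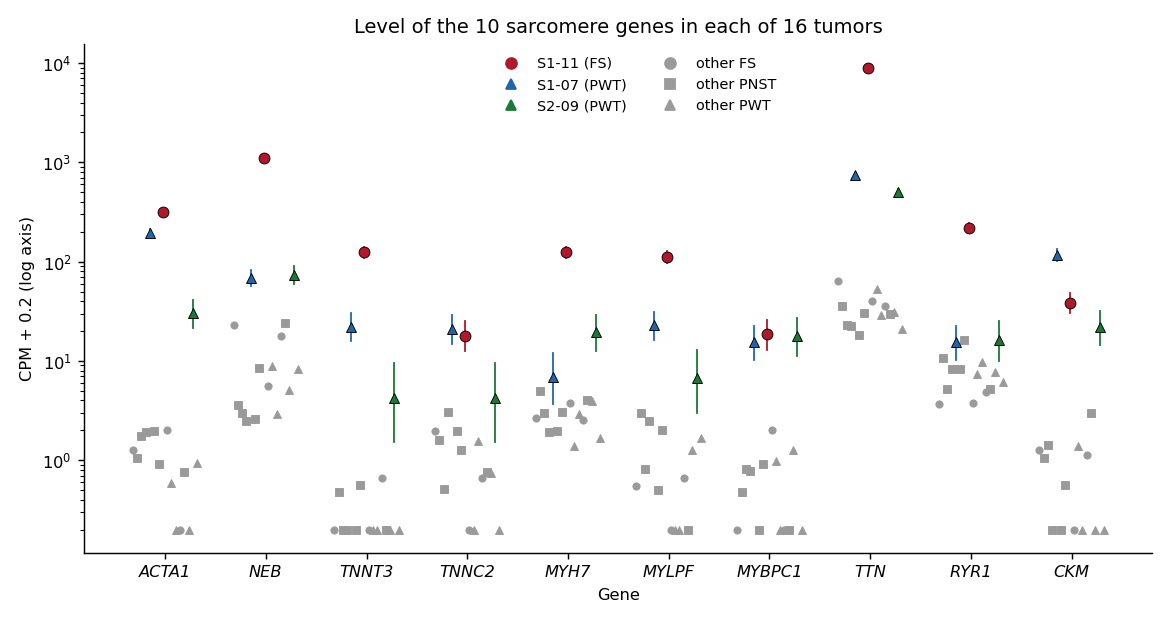
CPM of each gene in each of the 16 tumors, with 0.2 added so that zeros can be drawn on the log axis. Circles are FS, squares PNST and triangles PWT, and vertical bars are 95% counting intervals of the 3 coloured tumors. S1-11 is highest in 8 of the 10 genes, and *CKM* and *TNNC2* are highest in S1-07.

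S1-11 was thus the highest tumor for 8 of the 10 genes, whereas it was the highest for 8.47% of the 18517 genes with at least 50 reads. It exceeded the next tumor by more than 5 times for *TTN*, *NEB*, *RYR1*, *MYH7* and *TNNT3*, against 0.416% of those genes. For 9 of the 10 genes, all except *RYR1*, the 3 highest tumors were S1-11, S1-07 and S2-09, against 0.216% of those genes. The genes were chosen on S1-11, and S1-07 and S2-09 were picked out here by the same genes, so these counts describe the members and support nothing further. Without TMM scaling, S1-11 was highest for 7 of the 10, as it was in each of the 3 sequencing runs of the S1 tumors taken alone. The runs of S1-11 gave 6963 to 7292 CPM of *TTN* and 249 to 253 CPM of *ACTA1* without TMM scaling, and those of S1-07 gave 638 to 669 CPM and 144 to 192 CPM.

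The proportions among the genes differed between the 3 tumors. Because longer transcripts yield more reads and transcript lengths were not used here, shares of reads are compared between tumors, not between genes. Titin took 81.2% of the reads of the 10 genes in S1-11 (interval 80.7 to 81.7), 60.5% in S1-07 (58.5 to 62.6) and 72.0% in S2-09 (68.9 to 74.9). *ACTA1* took 2.86% in S1-11 (2.64 to 3.09) and 15.9% in S1-07 (14.4 to 17.5), with 4.33% in S2-09 (3.16 to 5.91). None of these intervals overlap for *TTN*, and for *ACTA1* that of S1-07 lies above both others (Wilson intervals throughout).

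Among reads of *ACTA1* and *CKM* together, *CKM* held 10.8% in S1-11 (8.68 to 13.5), 37.6% in S1-07 (33.7 to 41.8) and 42.2% in S2-09 (30.9 to 54.4). S1-11 therefore had a smaller share of creatine kinase reads than both PWT. Among reads of *TTN* and *NEB*, both very long genes, *NEB* held 11.0% in S1-11, 8.46% in S1-07 and 12.9% in S2-09, with the interval of S1-07 (7.13 to 10.0) below that of S1-11 (10.5 to 11.4) and that of S2-09 (10.6 to 15.6) across it. *MYBPC1* was 0.166% of the reads of the 10 genes in S1-11, 1.25% in S1-07 and 2.58% in S2-09.

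To ask whether the genes marked a tumor type apart from S1-11, each type was compared with both others pooled in the 15 tumors without it, using edgeR's quasi-likelihood test over 15408 genes. The study's comparison has the same form. A gene was called at an adjusted p under 0.05 (Benjamini-Hochberg) and an absolute log2 fold change above 1, and the 3 comparisons share tumors. *MYH7* reached the 10 reads asked for in only 4 of the 16 tumors, S1-11 among them, and in 3 of the 15 without it, so it entered the tests only through S1-11. With the filter applied to the 15 tumors, an alternative chosen after seeing the data, 3 members were tested, and 0 were called in FS, 0 in PNST and 1 (*TTN*) in PWT, against 5.98%, 0% and 1.42% of 15227 genes. *ACTA1*, *CKM*, *MYBPC1*, *TNNT3*, *TNNC2* and *MYLPF* were too sparse to be tested. FS differed from the rest in 0 of the 4 tested members, against 6.1% of all genes (3.8% higher and 2.3% lower). PNST differed in 0 of 4, against 0% of all genes (2689 genes at an unadjusted p under 0.05, 2 of the members among them, and 473 genes called by DESeq2). PWT differed in 1 of 4, against 1.38% of all genes (1.01% higher and 0.363% lower). At an unadjusted p under 0.05, the members below it were 1 of 4 in FS, 2 of 4 in PNST and 1 of 4 in PWT, against 21.4%, 17.5% and 19.9% of all genes.

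The member called in PWT was *TTN*, higher by 2.80 on the log2 scale (SE 0.68, adjusted p = 0.0486 by edgeR, 6 PWT against 9 others). That difference rested on S1-07 and S2-09. Without both it was 0.03 (SE 0.33, adjusted p = 0.977), without S1-07 alone it was 1.94 (adjusted p = 0.103) and without S2-09 alone 2.41 (adjusted p = 0.106), all by edgeR. With the name prefix as a term it was 3.08 and the call was lost (adjusted p = 0.221). In all, the call was lost in 22 of 27 alternatives, where adjusted p-values ran from 0.0509 to 0.977 by edgeR, and over all 27 from 0.00238 (DESeq2). When single tumors were left out, the difference stayed between 1.94 and 3.04, with adjusted p-values of 0.039 to 0.106 by edgeR, and the call was lost for 14 of the 15. The other 4 PWT overlapped the FS and the PNST for this gene.

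DESeq2, which tested sparser genes, called 3 members higher in PWT, against 4.06% of the genes it tested. These were *TTN* (2.77, SE 0.66, adjusted p = 0.00238), *ACTA1* (5.07, SE 1.33, adjusted p = 0.0067) and *CKM* (4.81, SE 1.55, adjusted p = 0.0356), while 4 members received no adjusted p. In that comparison DESeq2 kept the counts of S1-07 and S2-09 as they were for all members. edgeR without a count filter called *ACTA1* (5.00, SE 1.04, adjusted p = 0.0454), against 0.179% of the genes tested that way. *ACTA1* and *CKM* in the 4 PWT other than S1-07 and S2-09 were at most 0.739 and 1.19 CPM, within the range of the PNST for *CKM* (0 to 2.76 CPM) and at or below its median for *ACTA1* (1.20 CPM).

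In the same settings no member was called in the other types. For FS this stands against 7.23% of genes called by DESeq2 and 3.59% without a count filter, and for PNST against 2.72% and 0.00828%. Leaving out S1-07 and S2-09 together, no member was called in any type, against 4.48% of genes in FS, 0% in PNST and 0.117% in PWT. With S1-11 added, edgeR called no member in PWT, against 2.09% of genes. The study, which used DESeq2, lists *TTN* among the genes most significantly higher in PWT. DESeq2 was not run here with S1-11 added.

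The other members did not pass in PWT in edgeR's test, with log2 differences of 1.48 (SE 0.73) for *NEB*, 1.01 (SE 0.53) for *MYH7* and 0.50 (SE 0.37) for *RYR1*. Without S1-07 and S2-09 these were -0.65 (SE 0.71), -0.34 (SE 0.47) and 0.05 (SE 0.42). In PNST, *TTN* was lower by a log2 difference of -2.68 (SE 0.83, adjusted p = 0.139) and *NEB* by -1.79 (SE 0.76, adjusted p = 0.245), neither past the threshold of edgeR's test. Leaving out S1-07 and S2-09 brought these to -0.58 (SE 0.27) and -0.60 (SE 0.62). *RYR1* and *MYH7* in PNST were at 0.09 (SE 0.39) and -0.69 (SE 0.57).

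In the 3 FS without S1-11, *TTN* stood at -1.43 (SE 1.23) and *RYR1* at -1.23 (SE 0.46, adjusted p = 0.128) against the other 12 tumors in edgeR's test. The 3 FS values of *RYR1* (3.51 to 4.65 CPM) all lay below every PNST and PWT value (4.96 CPM and up). This was so for 2.31% of all genes tested and for no other tested member. The FS values rest on 10, 2 and 10 reads in S1-02, S1-12 and S2-06. Their counting intervals (1.68 to 6.46, 0.437 to 13.0 and 2.23 to 8.54 CPM) all take in the lowest PNST value. *NEB* and *MYH7* were at -0.07 (SE 1.00) and -0.67 (SE 0.77). Without S1-07 and S2-09, *TTN* in FS turned to 0.69 (SE 0.31) and *NEB* to 1.26 (SE 0.62), while *RYR1* stayed at -1.03 (SE 0.44), and none passed (adjusted p = 0.222, 0.278 and 0.207). With S1-11 among the FS, which is the contrast that chose the genes, the log2 differences were 4.17, 4.08, 2.63 and 2.98 for *TTN*, *NEB*, *RYR1* and *MYH7*. All 4 were called then, against 9.44% of all genes, which the choice of genes fixed.

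**Figure D3:**
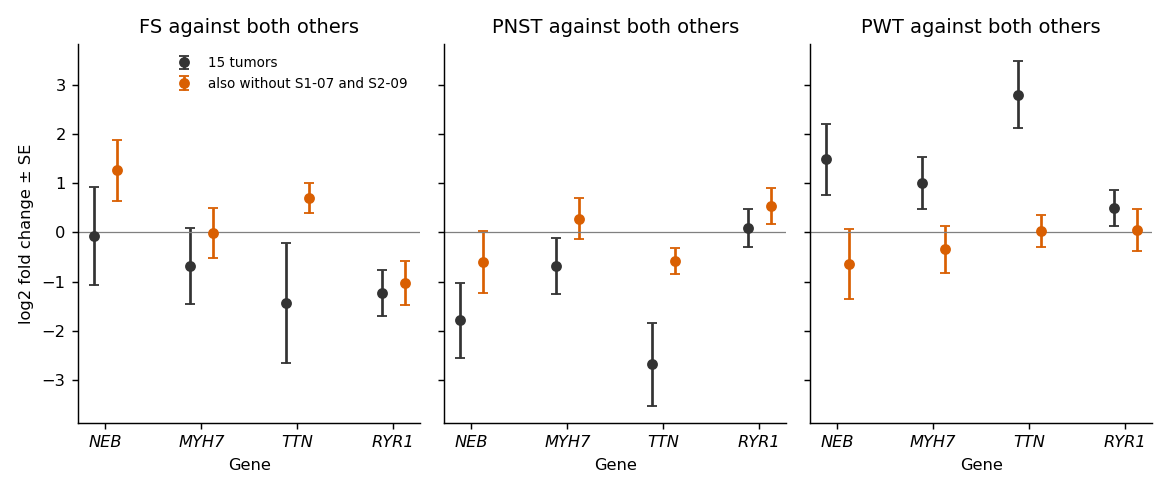
log2 fold change of the 4 tested genes in each type against both others pooled, without S1-11 (black, 15 tumors) and also without S1-07 and S2-09 (orange, 13 tumors). Bars are 1 SE, and *TTN* in PWT falls from 2.80 to 0.03 when those tumors are left out.

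The wider muscle program was followed in gene lists chosen with earlier results of these data known. S1-11 was the highest tumor for 8.47% of all genes with at least 50 reads, a mark that not every list gene reached. Of all genes tested, 6.1% were called in FS, 0% in PNST and 1.38% in PWT. Beside these shares, 0 calls among few tested genes are not informative. Of 44 other sarcomere and Z-disc genes, 36 were highest in S1-11, and 0 of the 15 tested were called in any comparison of types (median log2 differences of -0.18 in FS, -0.11 in PNST and 0.01 in PWT). The 4 of them with the highest CPM in S1-11 were *FLNC* (filamin C, 489 CPM), *TPM1* and *TPM2* (tropomyosins, 431 and 247 CPM) and *XIRP2* (230 CPM, a Z-disc and intercalated disc protein). Only *TPM2* and *XIRP2* were far above all other tumors, with at most 72.2 CPM (S1-12) and 37.1 CPM (S2-09) elsewhere, since *FLNC* reached 415 CPM in S2-08 and *TPM1* 189 CPM in S1-07. The median gene of this list was 20.6 times higher in S1-11 than in the other 15 tumors pooled. The summed list was less separate in S1-07 and S2-09 (864 and 739 CPM), which lay within the range of the other 13 tumors (474 to 869 CPM).

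Of these 44 genes, 9 had S1-11, S1-07 and S2-09 as the 3 highest tumors. This compares with 0.216% of genes with at least 50 reads, a mark that 36 of the 44 reached. They were *MYH2* and *MYH1*, the fast heavy chains, *MYL1*, a fast light chain, and *MYL2*, *MYL3*, *TNNC1*, *KLHL41*, *XIRP1* and *NRAP*. Levels of the first 3 are given, picked after their values were seen. *MYH2* had 174 CPM in S1-11, 44.5 CPM in S1-07, 24.2 CPM in S2-09 and at most 0.575 CPM elsewhere. *MYL1* had 83.6, 27.1 and 5.65 CPM in the same tumors and at most 0.575 CPM elsewhere. *MYH1* had 81.4, 19.7 and 3.23 CPM against at most 2.15 CPM. *TNNI2*, the fast troponin I, was in S1-11 (50.7 CPM) and S1-07 (19.7 CPM) but had 0 reads in S2-09, which allows up to 2.42 CPM there.

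The genes of excitation-contraction coupling, which link the nerve signal to calcium release, were less uniform than the sarcomere genes. Of 25, 14 were highest in S1-11, against 8.47% of genes with at least 50 reads, a mark that 16 of the 25 reached. The median ratio to the other 15 tumors pooled was 4.25. *CACNA1S*, the voltage sensor that gates *RYR1*, stood at 59.9 CPM in S1-11 (111 reads) and had at most 2 reads in any other tumor. *CASQ2*, a calcium-binding protein of the reticulum, had 44.2 CPM in S1-11 and at most 4.13 CPM elsewhere. *ATP2A2*, a calcium pump present in many tissues, differed far less, with 257 CPM in S1-11 and 182 CPM in S2-06. Without S1-11, 9 of these genes were tested. In FS, 1 was called higher and 1 lower, against 3.8% and 2.3% of all genes. *CACNA2D1*, a calcium channel subunit, was higher in FS by a log2 difference of 3.67 (SE 0.60, adjusted p = 0.00219 by edgeR), and *HRC*, a histidine-rich calcium-binding protein, was lower by -2.29 (SE 0.63, adjusted p = 0.0368 by edgeR). Neither was highest in S1-11. *CACNA2D1* had 159 CPM in S1-02 and 130 CPM in S1-11, and the study names it as a potential marker of FS. *HRC* had 8.62 CPM in the PNST S1-05 and 7.55 CPM in S1-11.

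Of the muscle energy genes, 5 of 18 were highest in S1-11, with a median ratio of 2.22. S1-11 was highest for 8.47% of genes with at least 50 reads, a mark that 15 of the 18 reached. In each type 0 of 12 tested genes were called, against 6.1% of all genes in FS, 0% in PNST and 1.38% in PWT. *LDHA*, *GYS1*, *PFKM* and *AK1* stood at 191, 71.2, 55.5 and 52.3 CPM in S1-11, and the highest of the other 15 tumors had 274, 112, 43.1 and 32.5 CPM. The summed list ranked S1-07 6 and S2-09 15 of the 16 tumors. *MB*, *PYGM* and, from the coupling list, *ATP2A1* were named after their values were seen. *MB*, myoglobin, had more reads in S1-07 (29 reads, 16.4 CPM) than in S1-11 (5 reads, 2.70 CPM), as for *CKM*, and 3 reads in S2-09. *PYGM*, the muscle glycogen phosphorylase, had 22.0 CPM in S1-07, 20.5 CPM in S1-11 and 4.84 CPM in S2-09. *ATP2A1*, the fast-fiber calcium pump, had 46.8, 24.8 and 12.1 CPM in these tumors, and 18.9 CPM in S2-08.

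Genes of developing and regenerating muscle separated S1-11 from S1-07 and S2-09. *MYH3*, the embryonic myosin heavy chain, stood at 904 CPM in S1-11 (1677 reads), 0.564 CPM in S1-07 (1 read), 3.23 CPM in S2-09 (4 reads) and at most 0.739 CPM elsewhere. *MYH8*, the perinatal heavy chain, had 71 reads in S1-11, 2 in S1-07 and 3 in S2-09. *ACTC1*, the alpha-actin of heart and developing muscle, had 136 reads in S1-11, 0 in S1-07 and 1 in S2-09. S1-07 and S2-09 thus had 0 to 4 reads of each of these 3 genes, beside 343 and 37 reads of *ACTA1*.

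*PAX7*, the satellite cell factor, had 78 reads in S1-11 (42.1 CPM) and 0 in both S1-07 and S2-09, which allows up to 1.69 and 2.42 CPM. *MYOG*, the factor of myoblast differentiation, had 20 reads in S1-11, and *MYF6* had 5, with 0 in S1-07 and S2-09 for both. *CHRNG*, the fetal acetylcholine receptor subunit, had 55 reads in S1-11 and 0 in S1-07 and S2-09. *MYOD1* and *MYF5*, which commit cells to the muscle lineage, had 1 read each in S1-11, so the lineage factors were near the limit of detection even there. Of the 22 genes in the list, 11 were highest in S1-11, against 8.47% of genes with at least 50 reads, a mark that 15 of the 22 reached. In S1-11 0 of the 22 were without reads, and 12 in S1-07 and 10 in S2-09 had none.

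Among the rest of this list, *SIX4*, a homeobox factor of muscle precursors, stood at 15.1 CPM in S1-11 and reached 8.36 CPM in the FS S2-06. *DES*, the muscle intermediate filament desmin, had 232 CPM in S1-11, 33.3 CPM in S1-07 and 7.26 CPM in S2-09, and 45.6 CPM in the PNST S1-03. *CDH15*, the cadherin of satellite cells, had 6 reads in S1-11. Others did not follow the members. *MYMK* and *MYMX*, the fusion proteins, had 3.77 and 0.539 CPM in S1-11 (7 reads and 1). S1-09 was higher for *MYMK* (5.07 CPM) and S2-11 for *MYMX* (0.739 CPM). *MEF2A*, *MEF2C* and *MEF2D*, factors used in many tissues, had 162, 78.2 and 96.0 CPM in S1-11 and up to 249, 153 and 204 CPM elsewhere. *NCAM1*, *FGFR4*, *EYA1* and *PAX3* had 51.8, 2.70, 1.08 and 1.62 CPM in S1-11, with higher levels in other tumors (up to 142, 12.8, 20.8 and 3.61 CPM).

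**Figure D4:**
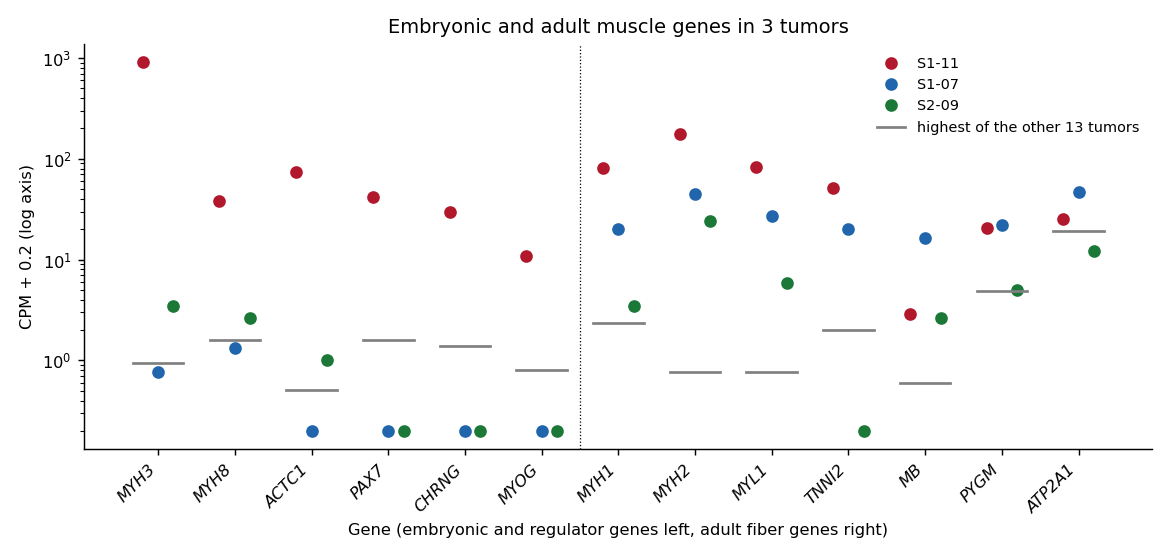
CPM (0.2 added, log axis) of 6 embryonic or regulator genes (left of the dotted line) and 7 adult fiber genes (right) in S1-11, S1-07 and S2-09, with the highest of the other 13 tumors as a grey line. The genes shown were chosen after their values were seen. All 6 genes on the left are highest in S1-11, for example *MYH3* at 904 CPM, whereas several on the right stand above the grey line in S1-07 too, for example *MYH2* at 44.5 CPM.

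Taken as shares of the reads on 6 myosin heavy chains (*MYH1*, *MYH2*, *MYH3*, *MYH4*, *MYH7* and *MYH8*), the embryonic and perinatal forms together made up 71.1% in S1-11 (1748 of 2458 reads, interval 69.3 to 72.9). In S1-07 they made up 2.33% (3 of 129 reads, 0.794 to 6.61) and in S2-09 10.8% (7 of 65 reads, 5.32 to 20.6). *MYH7* held 9.40% in S1-11, 9.30% in S1-07 and 36.9% in S2-09 (26.2 to 49.1). The slow form was thus a larger share in S2-09 than in both others, and the fast forms *MYH1* and *MYH2* led in S1-07 with 27.1% and 61.2%. The gamma subunit held 53.9% of the reads on *CHRNG* and *CHRNE* in S1-11 (44.3 to 63.3), 0% of 30 reads in S1-07 and 0% of 14 reads in S2-09. *CHRNE* had reads in all 16 tumors, up to 48.7 CPM in S1-12. Close paralogs such as the heavy chains and the actins share sequence, so how reads were split among them is uncertain.

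**Figure D5:**
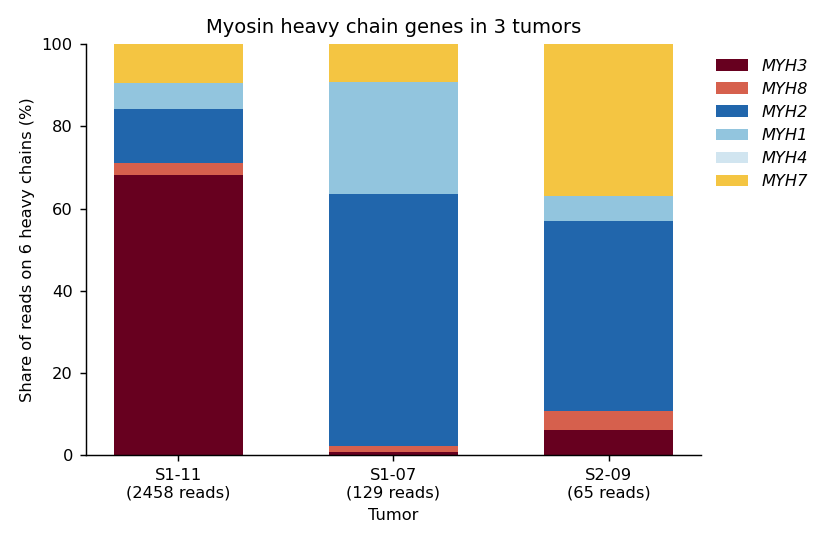
Share of the reads on 6 myosin heavy chain genes (%) in S1-11, S1-07 and S2-09, with the number of reads below each bar. *MYH3* (dark red) fills 68.2% of the bar of S1-11 and 0.775% of that of S1-07, where *MYH2* (dark blue) fills 61.2%.

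Other contractile tissues were looked at in the same way. Of 11 cardiac genes, 2 (*RYR2* and *MYH6*) were highest in S1-11, at 154 and 15.1 CPM. S1-11 was highest for 8.47% of genes with at least 50 reads, a mark that 4 of the 11 reached. *MYL7*, *MYBPC3*, *NPPA* and *NPPB* had 0 reads there. *TNNT2* and *TBX5* were at 36.1 and 10.2 CPM in S1-11, below S2-06 (55.3 CPM) and S1-12 (27.1 CPM). *TNNI3*, cardiac troponin I, was lower in FS without S1-11 by a log2 difference of -5.12 (SE 1.10, adjusted p = 0.0105 by edgeR). It was the 1 called of 3 cardiac genes tested, against 6.1% of all genes in FS. Of 11 smooth muscle genes, 7 were highest in S1-11, against 8.47% of genes with at least 50 reads. The list summed to 1602 CPM in S1-11, against 271 to 1132 CPM in the 13 tumors other than S1-07 (412 CPM) and S2-09 (731 CPM). Its genes with most reads in S1-11 were *MYH11* (315 CPM), *CALD1* (263 CPM), *TAGLN* (235 CPM) and *ACTA2* (210 CPM). The part of smooth muscle in the sum of the members was not tested.

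Because *TTN*, *NEB* and *RYR1* are very long, 22 other long genes were read beside them, most of them not particular to muscle, although *DMD*, dystrophin, is a gene of muscle fibers. S1-11 ranked 11 of the 16 tumors in their sum (12944 CPM, against 8427 to 19343 CPM), and the median gene was 1.02 times its level in the other 15 tumors pooled. The leading ones in S1-11, *LRP1* (3111 CPM), *DYNC1H1* (1377 CPM), *DST* (1336 CPM) and *FAT1* (1189 CPM), were all higher in another tumor. In S1-11, 3 of the 22 were highest, against 8.47% of genes with at least 50 reads. Named after their values were seen, these were *HMCN1* (hemicentin, 331 CPM, against at most 146 CPM), *RYR2* (154 CPM, against at most 20.0 CPM) and *DMD* (124 CPM, against at most 40.9 CPM). *UTRN*, utrophin, was the 1 of 21 tested that was called, lower in FS by -2.08 (SE 0.47, adjusted p = 0.0143 by edgeR). In FS 6.1% of all genes were called, so 1 of 21 is near that share. The part of transcript length in the levels of the members was not tested.

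Markers of other tissues that a section could hold were summed in the same way, and their part in the levels of the members was not tested. Of 8 epidermis markers, *KRT5*, *KRT14*, *KRT1*, *DSG1* and *KRT2* had 0 reads in S1-11, and the list summed to 15.1 CPM there, 18.6 CPM in S1-07 and 17.0 CPM in S2-09, against up to 1008 CPM (S1-05). Endothelial markers summed to 490.1, 470 and 458 CPM in S1-11, S1-07 and S2-09, ranks 3 to 5 of the 16 tumors. Adipocyte markers summed to 101, 50.7 and 96.9 CPM, macrophage markers to 586, 298 and 474 CPM, and both were exceeded in other tumors (176 and 1202 CPM). Nerve and Schwann cell markers summed to 72.3 CPM in S1-11, where *NGFR* gave 60.4 CPM, and to 15.8 and 16.1 CPM in S1-07 and S2-09. Whether the sections used for RNA held muscle fibers is not given in the sources used here, so RNA from muscle in the section and expression of these genes by tumor cells cannot be told apart in these counts.

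Genes outside all lists whose levels ran most like the mean log2(CPM + 1) of the members were ranked by Spearman's rho. Over 16 tumors these were *SLC26A5* (0.78), *LOC476816* (0.77), *DHX38* (0.77), *ANK2* (0.76), *SYNRG* (0.75), *IK* (0.75), *SLIRP* (0.73) and *COL9A2* (0.72), against a 95th percentile of 0.41 among 15297 genes. Over the 15 tumors without S1-11 they were *FAM118A* (0.84), *PPP3R1* (0.81), *IK* (0.76), *WNT4* (0.76), *MICALCL* (0.76), *DHX38* (0.75), *LOC476816* (0.74) and *SYNRG* (0.74), against 0.40. *IK*, *DHX38*, *LOC476816* and *SYNRG* were in both, and both rankings share those 15 tumors. The genes named are the top 8 of each ranking, so they exceed the percentile by construction. Whether rho values this high arise by chance among so many genes was not tested. The ranks of the 13 low tumors rest on a few reads of most members, and depth and base composition are shared by all genes of a library. *ANK2*, an ankyrin of nerve and heart, had 247 CPM in S1-11 and up to 306 CPM in another tumor although its rho was among the highest.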

How the data were processed

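RNA from sections of each archived tumor was depleted of ribosomal RNA and sequenced with an Ion Proton. The authors aligned reads to the canine genome ROS-canfam-01 with STAR and counted reads per gene with HTSeq. The deposited values are raw counts, not normalized, for 34 runs of 16 tumors. Strand settings and HTSeq's version are not given in the sources used here. Runs of a tumor were summed, and the 5 summary entries that name no gene were left out (69.4% to 77.1% of reads listed).

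The 10 genes, the 12 further gene lists and the rules for naming genes were chosen with earlier results of these data known. From each list, genes called in a comparison, the 4 highest in S1-11 and every myogenic or embryonic gene were named, besides the 10 members and the 8 genes most like them in each ranking, and some list genes are not reported here. Of the list genes, 1 was absent from the table. Gene symbols are those of the deposited table, and no coordinates are given, because the annotation used here is of another assembly.

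Tests used edgeR 4.0.16 in R 4.3.3 (quasi-likelihood, TMM, no covariate) on 15408 genes that reached 10 counts in 4 or more tumors, in the 15 tumors without S1-11. In simulated counts for these 15408 genes with 200 changed 4-fold, 62% were recovered in the FS comparison, 74.5% in PNST and 72.5% in PWT. The changed genes were drawn at random with independent counts, so these shares do not give the power for the members. Alternatives were DESeq2 1.42.0, other scalings, no count filter, histology groups and the prefix as a term. Others took S1-04 and S1-05 as 1 tumor or left out each tumor in turn. DESeq2 replaced outlying counts of S1-07 or S2-09 for some members in the FS and PNST comparisons, but for no member in PWT. Leaving out S1-07 and S2-09 together, and a count filter over the 15 tumors, were added after seeing the data. The PNST and PWT values of each member (20 groups of 6) were checked for a value far from the rest. Dixon's criterion on log2(CPM + 1) was used, and none met it. It sets the gap between an extreme value and the next against the range. In PWT, S1-07 and S2-09 were high together, so each could mask the other. The check therefore cannot decide whether these tumors were outlying among the PWT. The FS were not checked, because S1-11 chose the genes. Replicates are single tumors, so p-values are set against the spread between these tumors. The types rest on expression in these same libraries, and S1-04 and S1-05 may come from the same dog. Both can make p-values too small. Intervals are exact Poisson for counts and Wilson for shares (SciPy 1.17.1), and PCR copies cannot be told from separate molecules. The limit given for a count of 0 is a fixed floor of 3 reads. It is tighter than the upper end of the Poisson interval, which for a count of 0 is 2.08 CPM in S1-07 and 2.98 CPM in S2-09.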

Additional observations from a re-analysis of the deposited data

How the results depend on the processing

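Results are limited by few reads per member (6 of 10 untested), by 1 tumor that chose the genes and by 2 others that hold most remaining reads. S1-11 remained highest in 7 or 8 of the 10 members under all 6 alternatives. No paired analysis was possible, because each tumor belonged to 1 type and no normal tissue was analysed here.

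The number of genes called moved as follows. For FS (940) it was 1439 with DESeq2, 1455 with all 16 tumors and 30 with histology groups, and 614 to 1127 when single tumors were left out (614 without S2-06). For PNST (0) it was 473 with DESeq2 and 3 without a count filter, and 0 to 119 when single tumors were left out (119 without S1-02). For PWT (212) it was 107 with library totals only, 621 with DESeq2, 65 without a count filter, 322 with all 16 tumors, 0 with histology groups, 0 with the prefix as a term, 64 with S1-04 and S1-05 as 1 tumor and 18 without S1-07 and S2-09, and 1 to 274 when single tumors were left out (1 without S2-11, 9 without S2-04, and 57 to 89 without any of S1-02, S1-03, S1-04, S1-05, S1-09, S1-10, S2-03 or S2-09).

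Members called were 4 for FS with all 16 tumors. For PWT (1) they were 3 with DESeq2 and 0 with library totals only, robust estimation, all 16 tumors, histology groups, the prefix as a term, S1-04 and S1-05 as 1 tumor, or without S1-07 and S2-09, and 0 to 1 when single tumors were left out.

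Signs of log2 differences turned in these cases, and the cause was not tested unless named. For FS, *TTN* was 0.69 with DESeq2 (which replaced the counts of S1-07 and S2-09), 4.17 with all 16 tumors and 0.69 without S1-07 and S2-09. *NEB* for FS was 0.14 with library totals only, 4.08 with all 16 tumors, 0.036 with the prefix as a term, 1.26 without S1-07 and S2-09, and -0.43 to 0.40 when single tumors were left out. *RYR1* and *MYH7* for FS were 2.63 and 2.98 with all 16 tumors. For PNST, *RYR1* was -1.76 with all 16 tumors, -0.31 with histology groups, -0.0060 with the prefix as a term and -0.17 to 0.27 when single tumors were left out, and *MYH7* was 0.28 without S1-07 and S2-09. For PWT, with all 16 tumors, *TTN*, *NEB*, *RYR1* and *MYH7* were -2.03, -2.10, -1.48 and -1.37, and without S1-07 and S2-09 *NEB* and *MYH7* were -0.65 and -0.34.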

Other observations

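Genes outside the lists were also far higher in S1-11 than elsewhere, and those named here were chosen after their values were seen. Of the 77 genes at more than 5 times the next tumor, 28 were in a list and 49 in none. Several of the 49 are known from muscle, for example *ANKRD1*, a stress-responsive titin-binding protein, at 81.4 CPM against at most 0.807 CPM, *IGFN1* at 211 CPM against 10.7 CPM in S1-07, and *MYPN*, a Z-disc protein, at 43.1 CPM against 8.46 CPM in S1-07. Cartilage matrix genes were *ACAN* at 411 CPM against at most 1.81 CPM and *COL2A1* at 102 CPM against at most 3.16 CPM. The imprinted growth genes *IGF2* and *H19* stood at 1140.4 and 231 CPM against at most 84.6 and 2.79 CPM. *ELN*, elastin, stood at 2210.2 CPM against 166 CPM in S1-12, and *PAPPA2* at 489 CPM against 6.04 CPM in S2-06.

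The 40 genes for which S1-11, S1-07 and S2-09 were the 3 highest tumors held 9 of the 10 members and 22 genes of no list. Among the latter, *PDLIM3*, a Z-disc adaptor, stood at 177, 25.9 and 32.3 CPM against at most 11.8 CPM in the other tumors. *CMYA5*, a costamere protein of muscle, was highest in S1-07 (33.3 CPM) as *CKM* was, with 23.2 CPM in S1-11, 7.26 CPM in S2-09 and at most 6.82 CPM elsewhere. *COL9A2*, a cartilage collagen, had 26.4, 7.89 and 5.65 CPM against at most 5.02 CPM. Several others, such as *OST4* (52.8, 45.1 and 43.6 CPM against at most 39.9 CPM), stood only slightly above the rest.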
